A study of Homo sapiens with 74 samples.

Results

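Transcripts of 10 glycolytic enzymes were examined in 2 human erythroleukaemia cell lines after loss of DOT1L or of its partner ENL. The enzymes were chosen by gene symbol, as HK1, HK2, GPI, PFKM, ALDOA, GAPDH, PGK1, ENO1, PKM and LDHA, and they are 10 of the 28131 genes in each of the count tables. All 10 passed the filter on low counts in both lines. DOT1L is the methyltransferase that acts on lysine 79 of histone H3, and ENL (gene symbol MLLT1) binds acylated histones and belongs to the DOT1L complex. K562, an established line from a chronic myeloid leukaemia, was labelled wild type (2 distinct libraries), DOT1L-/- (3 libraries) or ENL-/- (3 libraries). HEL, an established line from an erythroleukaemia, was labelled control (2 libraries) or DOT1L knockdown (2 libraries). One more wild-type K562 column repeats another count for count over all 28131 genes and was not counted as a library of its own. The labels do not say how many clones the knockout libraries came from, which reagent lowered DOT1L in HEL, or whether replicates were separate cultures, so p-values measure only the spread between these libraries, which may be technical. K562 was grown in DMEM and HEL in RPMI-1640, so medium and cell line cannot be told apart.

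Glycolysis splits glucose into pyruvate in the cytosol and yields ATP and NADH without oxygen. Hexokinases (HK1, HK2) phosphorylate glucose, GPI converts it to fructose 6-phosphate, phosphofructokinase (PFKM and its relatives) commits it to breakdown, and aldolase (ALDOA) splits the sugar. GAPDH, PGK1, ENO1 and PKM carry the 3-carbon intermediates to pyruvate, and LDHA reduces pyruvate to lactate, which leukaemic cells typically release. Many of these genes are known targets of the hypoxia-inducible factors, which bind the core ACGTG, and of MYC, which binds the E-box CACGTG.

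The promoters of the enzymes are shown because 8 of the 10 fell in DOT1L-/- K562 and 8 rose in the HEL knockdown. RefSeq promoter windows of GRCh38.p14, from 250 bases before to 50 bases after each start, were searched on both strands. All 10 genes had a window, 26 in all, since some have several starts. ACGTG was found in 11 of the 26 windows (42.3%), beside 21.4% of all 35116 windows, and in at least 1 window of 7 of the 10 enzymes, beside 24.9% of all 27305 genes. The E-box CACGTG, which contains ACGTG on both strands, was found in 4 windows (15.4%), beside 7.26% of all windows, and in 4 of the 10 enzymes (HK2, ALDOA, GAPDH and LDHA), beside 8.77% of genes. HK1, ENO1 and PKM had neither in these windows. A match describes the letters and not binding. The enzymes had more windows per gene (26 for 10) than all genes (35116 for 27305), so the shares of genes are not on equal terms. Several windows of HK1 and of PFKM overlap each other, so the 26 windows are not separate stretches. All windows were taken as background, not matched for expression or base content. One match for each of 6 enzymes is printed on the plus strand, which is also the strand of these genes, with the motif in capitals.
HK2, chr2:74835011-74835036, 149 bases before a start: ccggcgagagCACGTGgagagaatcg
GPI, chr19:34364820-34364844, 162 bases before the start: actgcctgtaACGTGgaaggtgttc
ALDOA, chr16:30064375-30064400, 112 bases before a start: gcagggaggcCACGTGatccgagtcc
GAPDH, chr12:6535173-6535198, 81 bases before the start: tctgcggggtCACGTGtcgcagagga
PGK1, chrX:78104036-78104060, 202 bases before the start: ggcgtgccggACGTGacaaacggaa
LDHA, chr11:18394466-18394491, 87 bases before a start: gcccgactcaCACGTGggttcccgca

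Each K562 library held between 15404944 and 29236703 counts, and each HEL library between 12151495 and 12811688. The targeted transcripts were lower but still counted: DOT1L had 256 and 270 CPM (counts scaled to library size with TMM) in wild-type K562 against 176 to 186 in DOT1L-/-, and 87.4 and 97.5 CPM in HEL control against 29.1 and 30.0 in the knockdown, while MLLT1 had 214 and 219 CPM in wild type against 153 to 157 in ENL-/-. All 11 erythroid markers had at least 1 CPM in every group. Their summed level was 6963 to 7510 CPM in wild type, 10899 to 11483 in DOT1L-/- and 9023 to 9245 in ENL-/-, and it was 7117 to 7240 in HEL control and 9701 to 10377 in the knockdown. Of the 4 monocyte markers only LYZ reached 1 CPM in any group, and their sum was 33.3 to 36.0 CPM in wild type, 292 to 324 in DOT1L-/- and 19.5 to 21.1 in ENL-/-. Megakaryocytic markers summed to 4.18 to 6.43, 39.3 to 43.3 and 11.3 to 15.1 CPM in the same order, with GP1BB at 0 in every group, PF4 at 0 in wild type and DOT1L-/-, and GP9 at 0 in wild type. In HEL the megakaryocytic sum was 1769 to 1830 CPM in control and 1617 to 1631 in the knockdown. T cell markers summed to 78.5 to 78.8 CPM in wild type, 19.8 to 24.8 in DOT1L-/- and 116 to 127 in ENL-/-, nearly all from CD3D and CD3G, and to 8.49 to 11.1 and 8.87 to 9.78 in HEL control and knockdown. Fibroblast and epithelial markers summed to 134 to 136, 208 to 221 and 108 to 116 CPM in the K562 groups, with COL1A1 at 10.9 CPM in wild type and 117 in DOT1L-/- and KRT5 at 0, and to under 7 CPM in HEL. B cell markers summed to under 9 CPM in every library, with MS4A1 at 0. The part of these shifts in the results on the enzymes was not tested.

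In wild-type K562 the length-scaled level (TPM) fell in the order GAPDH (3491 ± 153, SD, n = 2), ENO1 (1973 ± 1.63), LDHA (1268 ± 43.1), PKM (952 ± 5.30), PGK1 (563 ± 7.79), HK1 (534 ± 7.85), GPI (248 ± 3.45), ALDOA (64.2 ± 12.1), HK2 (62.3 ± 1.64) and PFKM (37.1 ± 0.57). Only ALDOA and HK2 overlapped among neighbours. Some places differed in the knockouts. LDHA was above PKM in wild type, with 1237 and 1298 TPM against 948 and 956. In DOT1L-/- it was below PKM, with 749 to 802 TPM against 900 to 907. PGK1 was below HK1 in both knockouts, at 370 against 557 TPM on average in DOT1L-/- and 591 against 623 in ENL-/-. HEL control kept the first 5 places of wild-type K562, from GAPDH at 7711 ± 147 TPM (SD, n = 2) to PGK1 at 924 ± 17.6. There GPI (317) was above HK1 (231), and ALDOA, whose exons are partly shared with another gene, was last (5.75). The 5643 exonic bases of GPI lie on 2 assembled sequences, so its TPM may be understated in every group. In the HEL knockdown PKM (1694) and PGK1 (1364) were both above LDHA (1080). K562 and HEL levels come from tables of fragments and of reads that were scaled separately, so their sizes are set side by side without a test.

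**Figure D1:**
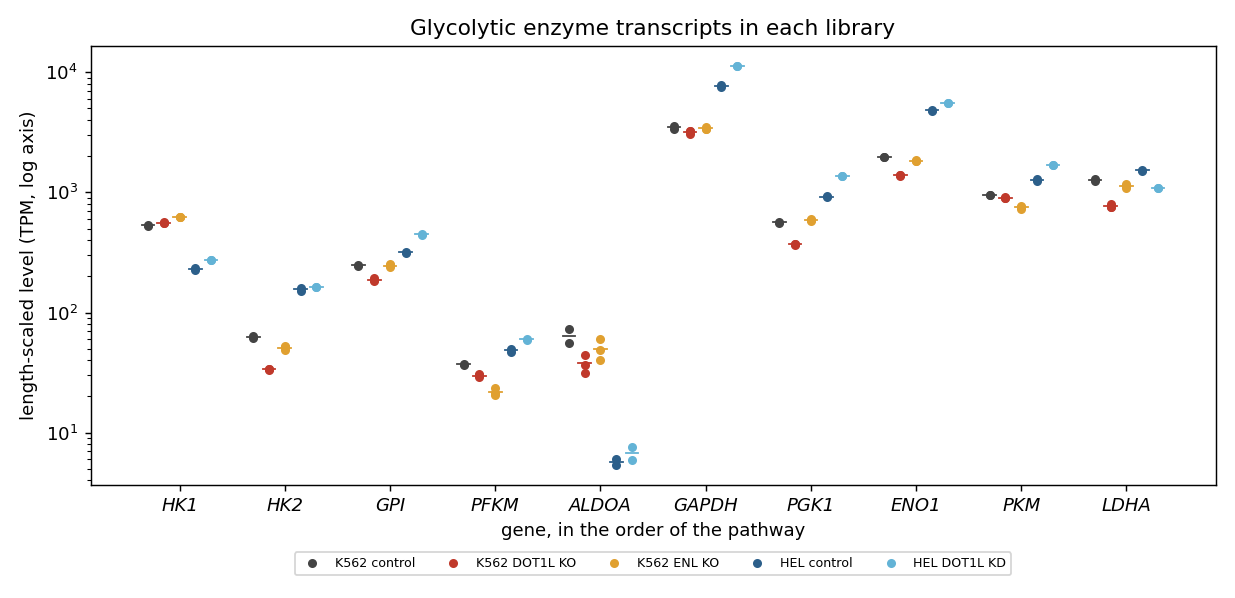
Length-scaled level (TPM, log axis) of each enzyme in each of the 12 distinct libraries, with the genes in pathway order on the horizontal axis; points are libraries, short bars group means, and colours the 5 groups. DOT1L-/- libraries lie below wild type for HK2 (33.3 to 33.8 against 61.2 and 63.5 TPM), and HEL knockdown libraries lie above control for GAPDH (11298 and 11305 against 7607 and 7815 TPM).

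Most of the pathway was lower in DOT1L-/- K562. Of the 10 enzymes 8 were lower than in wild type and 0 higher, and HK1 and PKM did not pass the threshold (edgeR's quasi-likelihood test, Benjamini-Hochberg adjusted p under 0.05 over all genes). Over all 14301 genes tested, 51.1% passed, 26.9% higher and 24.2% lower. The median log2 fold change was -0.47 for the enzymes and 0.01 for all genes. The enzymes took 0.968 and 0.978% of all counts in wild type and 0.791 to 0.810% in DOT1L-/-. In these bulk samples fewer cells of a kind and less RNA per cell cannot be told apart.

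In ENL-/- K562 fewer of the enzymes were called. HK1 was higher, HK2, PFKM, PKM and LDHA were lower, and 5 enzymes did not pass. The background was 41.0% of genes past the threshold, 18.8% higher and 22.2% lower, so the count of 5 of 10 is near it. The median was -0.11 for the enzymes and 0.00 for all genes, and the enzymes took 0.916 to 0.95% of counts. ENL-/- labels name no sequencing lane while those of wild type and DOT1L-/- do, so a batch and the ENL knockout cannot be told apart. Both knockouts share the 2 wild-type libraries.

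A direct comparison of the knockouts takes its difference from their own libraries. The lane labels differ here too, so a batch and the knocked-out gene cannot be told apart. There all 10 enzymes passed the threshold, with 8 lower and 2 (PFKM and PKM) higher in DOT1L-/- than in ENL-/-, against a background of 60.2%, of which 31.8% were higher and 28.3% lower. The median difference was -0.44, beside 0.00 for all genes. GAPDH lost its call without DOT1L-/- replicate 1 or ENL-/- replicate 2 (edgeR adjusted p 0.0681 and 0.0618), and with upper-quartile scaling (0.0827), library size only (0.0643) or a mean of at least 10 CPM (0.122). ALDOA lost its call without DOT1L-/- replicate 2 or 3 or ENL-/- replicate 1 (edgeR adjusted p 0.105, 0.0759 and 0.0886), with robust fitting (0.0981), with a mean of at least 10 CPM (0.0763) and with DESeq2 (adjusted p 0.112).

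In HEL most enzymes were higher with the DOT1L knockdown: 8 rose, LDHA fell and ALDOA did not pass, beside 55.0% of 12635 genes, of which 27.0% were higher and 28.0% lower. Of all genes past the threshold in HEL 49.1% were higher, and 61.4% with upper-quartile scaling. The common coefficient of variation between libraries of a group, from edgeR, was 1.83% in HEL and 6.34% in K562. A change of a given size can thus get a smaller p-value in HEL. The median was 0.32 for the enzymes and 0.01 for all genes, and the enzymes took 1.73 and 1.71% of counts in control and 2.27 and 2.28% in the knockdown.

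**Figure D2:**
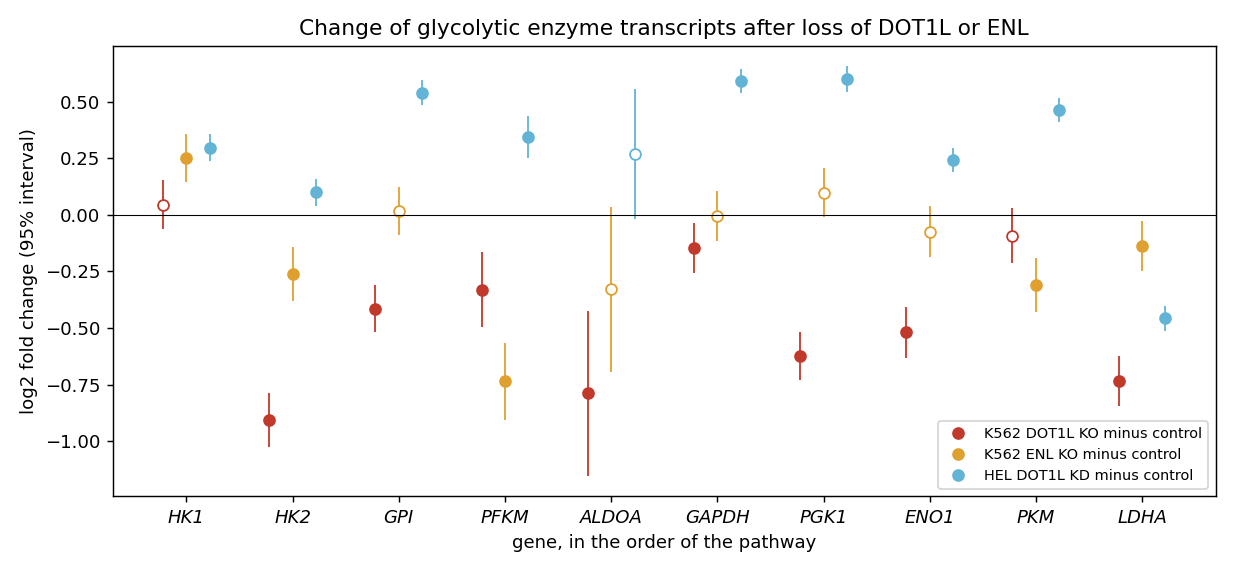
Log2 fold change of each enzyme against the control of its cell line, with 95% intervals from edgeR's quasi-likelihood fit; filled points passed the adjusted p threshold, open points did not, and colours are the 3 comparisons. HK2 stands at -0.91 in DOT1L-/- and at 0.10 in the HEL knockdown, and LDHA is the 1 enzyme lower in all 3.

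HK2 (chromosome 2, 74832655 to 74893354 on GRCh38) encodes the inducible hexokinase of proliferating cells. Its normalised count was 176 and 169 CPM in wild-type K562, 94.2, 92.9 and 88.9 in DOT1L-/-, and 148, 140 and 145 in ENL-/-. No library of one group reached the range of another. The fitted change was -0.91 on the log2 scale (SE 0.055, edgeR adjusted p 1.54e-08) in DOT1L-/-, the largest of the 10 enzymes, and -0.26 (SE 0.055, edgeR adjusted p 0.00196) in ENL-/-. In HEL it had 448 and 433 CPM in control and 474 and 471 in the knockdown, a rise of 0.10 (SE 0.030, edgeR adjusted p 0.00467). That rise was lost with DESeq2 (adjusted p 0.0728). Without knockdown 1, which leaves 1 knockdown library, it was 0.09.

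HK1 (chromosome 10, 69270000 to 69401881), the broadly expressed hexokinase, was not lower in any comparison with a control. Wild type had 1017 and 993 CPM, DOT1L-/- had 1046, 1053 and 1010, and ENL-/- had 1231, 1200 and 1155. The DOT1L-/- range overlapped wild type, at a log2 change of 0.04 (95% interval -0.06 to 0.15, edgeR adjusted p 0.484), and ENL-/- lay above both, with a rise of 0.25 (SE 0.050, edgeR adjusted p 0.00125). HEL control had 449 and 436 CPM and the knockdown 540 and 546, a rise of 0.30 (SE 0.030, edgeR adjusted p 2.61e-12). As a share of summed hexokinase TPM, HK2 was 10.4 ± 0.110% (SD, n = 2) in wild type, 5.68 ± 0.065% (SD, n = 3) in DOT1L-/- and 7.57 ± 0.258% (SD, n = 3) in ENL-/-, and it was 40.3 ± 0.110% in HEL control and 37.1 ± 0.271% in the knockdown (SD, n = 2 each). HK2 had a smaller share of the step in each depleted group than in its control, also in HEL where its level rose. HK3 and HKDC1 together made up under 1% of the step in every library.

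GPI (chromosome 19, 34364740 to 34402413), the isomerase that follows, had 542 and 551 CPM in wild type and 409, 411 and 409 in DOT1L-/-, at -0.41 on the log2 scale (SE 0.048, edgeR adjusted p 8.41e-06). ENL-/- had 548, 570 and 539 CPM, a range that enclosed the wild type, at a log2 change of 0.02 (95% interval -0.09 to 0.12, edgeR adjusted p 0.816). In HEL it had 704 and 721 CPM in control and 1025 and 1047 in the knockdown, a rise of 0.54 (SE 0.028, edgeR adjusted p 5.22e-23). GPI thus fell in DOT1L-/- K562 and rose in the HEL knockdown, and neither of these groups overlapped its control.

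PFKM (chromosome 12, 48105253 to 48146404), the muscle-type phosphofructokinase, was 1 of 2 enzymes that were lower in ENL-/- than in DOT1L-/-. Wild type had 75.6 and 73.7 CPM, DOT1L-/- had 62.0, 60.1 and 55.9, and ENL-/- had 49.1, 44.3 and 40.8, with no overlap among the groups. The log2 fold changes were -0.33 (SE 0.077, edgeR adjusted p 0.00277) and -0.74 (SE 0.078, edgeR adjusted p 5.88e-06), and the knockouts differed by 0.41 (SE 0.072, edgeR adjusted p 0.000249). HEL had 95.5 and 103 CPM in control and 126 in both knockdown libraries, a rise of 0.34 (SE 0.046, edgeR adjusted p 6.80e-09). Its exons share 609 of 5151 bases (11.8%) with SENP1 on the opposite strand, and whether strand was used in counting is not given in the sources used here.

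PFKM was the least abundant of the 3 phosphofructokinase genes in every group. Its share of summed TPM was 13.5 ± 0.327% (SD, n = 2) in wild type, 15.7 ± 0.454% (SD, n = 3) in DOT1L-/- and 7.66 ± 0.141% (SD, n = 3) in ENL-/-. The liver-type PFKL fell in DOT1L-/- (-0.45, SE 0.063, edgeR adjusted p 4.90e-05), and so did the platelet-type PFKP (-0.79, SE 0.069, edgeR adjusted p 5.58e-07). In ENL-/- PFKL rose by 0.21 (SE 0.064, edgeR adjusted p 0.0171) and PFKP was at 0.11 (edgeR adjusted p 0.220). In HEL both rose with the knockdown, PFKL by 0.25 and PFKP by 0.14 (edgeR adjusted p 8.82e-09 and 0.00191).

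ALDOA (chromosome 16, 30064279 to 30072216) encodes the aldolase of most tissues, and its value is uncertain. Its exons share 1406 of 3948 bases (35.6%) with LOC112694756 on the same strand, a gene that had 44 to 88 counts in K562 libraries and 9 to 15 in HEL libraries, and how shared reads were assigned is not given in the sources used here. Wild type had 112 and 85.7 CPM, DOT1L-/- had 69.4, 48.4 and 54.7, and ENL-/- had 96.8, 77.0 and 61.7. DOT1L-/- lay below wild type (-0.79, SE 0.169, edgeR adjusted p 0.00155), while ENL-/- overlapped it (-0.33, 95% interval -0.69 to 0.04, edgeR adjusted p 0.140). The latter passed without ENL-/- replicate 1 (-0.51, edgeR adjusted p 0.0119) and with no low-count filter (-0.33, edgeR adjusted p 0.00859). HEL libraries held 119 and 108 counts in control and 154 and 117 in the knockdown, too few to place the change more closely than 0.27 (95% interval -0.02 to 0.56, edgeR adjusted p 0.105). Without knockdown 2, which leaves 1 knockdown library, the change was 0.44.

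ALDOC, the brain-type aldolase, had the higher length-scaled level of the pair in every group, from 72.1 TPM against 37.7 for ALDOA in DOT1L-/- to 747 against 6.74 in the HEL knockdown, with the ALDOA side uncertain as said. In CPM, which is not scaled to length, DOT1L-/- had less ALDOC than ALDOA on average. In DOT1L-/- it fell to 46.0 ± 5.15 CPM (SD, n = 3) from 167 ± 15.0 in wild type (SD, n = 2), or -1.86 on the log2 scale (SE 0.090, edgeR adjusted p 1.68e-09). It was at -0.18 in ENL-/- (edgeR adjusted p 0.115) and at 0.05 in HEL (edgeR adjusted p 0.188).

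GAPDH (chromosome 12, 6534517 to 6538375) makes the NADH of the pathway and is widely used as a reference gene. It had 2356 and 2499 CPM in wild type, 2152, 2261 and 2166 in DOT1L-/-, and 2432, 2480 and 2343 in ENL-/-. DOT1L-/- lay just below wild type (-0.15, SE 0.051, edgeR adjusted p 0.0286), and ENL-/- overlapped it (-0.01, 95% interval -0.12 to 0.11, edgeR adjusted p 0.949). The first call was lost without DOT1L-/- replicate 1 (edgeR adjusted p 0.0912) or DOT1L-/- replicate 3 (0.0660). Library-size scaling, upper-quartile scaling and a mean of at least 10 CPM lost it too (edgeR adjusted p 0.0646, 0.0510 and 0.0544). Without wild-type replicate 2 the log2 change was -0.11. HEL rose from 5506 and 5430 CPM to 8207 and 8262, by 0.59 (SE 0.026, edgeR adjusted p 3.26e-26), so GAPDH was not constant against the other transcripts there.

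PGK1 (chromosome X, 78104169 to 78126827), which makes the first ATP of the payoff phase, had 528 and 537 CPM in wild type, 354, 350 and 334 in DOT1L-/-, and 583, 561 and 565 in ENL-/-. It fell by 0.62 in DOT1L-/- (SE 0.049, edgeR adjusted p 2.06e-07). ENL-/- libraries lay above wild type, but the difference of 0.10 did not pass (95% interval -0.01 to 0.20, edgeR adjusted p 0.140). The knockouts differed by -0.72 (SE 0.045, edgeR adjusted p 9.74e-09), the largest such difference among the enzymes. HEL had 875 and 910 CPM in control and 1350 and 1355 in the knockdown, a rise of 0.60 (SE 0.028, edgeR adjusted p 4.06e-25).

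ENO1 (chromosome 1, 8861000 to 8878686, minus strand), the ubiquitous enolase, had 2441 and 2430 CPM in wild type, 1748, 1719 and 1632 in DOT1L-/-, and 2410, 2300 and 2230 in ENL-/-. It fell by 0.52 in DOT1L-/- (SE 0.052, edgeR adjusted p 2.02e-06) and was at -0.07 in ENL-/- (95% interval -0.19 to 0.04, edgeR adjusted p 0.282). HEL rose from 6109 and 6078 to 7156 and 7255 CPM, by 0.24 (SE 0.026, edgeR adjusted p 1.18e-11). The neuronal ENO2 and the muscle ENO3 moved against ENO1 in DOT1L-/-. ENO2 had 28.7 ± 2.44 CPM in wild type (SD, n = 2) and 70.6 ± 3.52 in DOT1L-/- (SD, n = 3), a rise of 1.30 (SE 0.084, edgeR adjusted p 2.57e-08), and ENO3 by 0.76 (SE 0.103, edgeR adjusted p 3.88e-05). ENO1 still held 97.2 ± 0.157% of summed enolase TPM in wild type (SD, n = 2) and 91.9 ± 0.358% in DOT1L-/- (SD, n = 3).

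PKM (chromosome 15, 72199029 to 72231624, minus strand) encodes the pyruvate kinases PKM1 and PKM2, which gene counts do not separate. Wild type had 1269 and 1274 CPM, DOT1L-/- had 1216, 1206 and 1158, and ENL-/- had 1072, 1044 and 958. In DOT1L-/- it was at -0.09, which did not pass although the ranges were apart (95% interval -0.21 to 0.03, edgeR adjusted p 0.188). It fell by 0.31 in ENL-/- (SE 0.055, edgeR adjusted p 0.000515), which made it, with PFKM, an enzyme lower in ENL-/- than in DOT1L-/- (difference 0.22, SE 0.050, edgeR adjusted p 0.00176). HEL had 1738 and 1705 CPM in control and 2380 and 2362 in the knockdown, a rise of 0.46 (SE 0.026, edgeR adjusted p 2.57e-21). PKLR, the pyruvate kinase of liver and red cells, rose in both knockouts, from 3.02 ± 0.196 CPM (SD, n = 2) to 8.91 ± 0.403 in DOT1L-/- and 10.9 ± 1.23 in ENL-/- (SD, n = 3 each), with log2 fold changes of 1.56 and 1.85 (edgeR adjusted p 1.06e-06 and 3.19e-07). In K562 PKLR stayed under 1% of pyruvate kinase TPM, and it was at 0 TPM in HEL control and in the knockdown. The erythroid marker sums given above were higher in both knockouts and in the HEL knockdown. A link between them and PKLR was not tested. The 6336 exonic bases of PKLR lie on 2 assembled sequences and 17.6% are shared, so its TPM may be understated.

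LDHA (chromosome 11, 18394389 to 18408218), the lactate dehydrogenase subunit associated with lactate production, had 1236 and 1292 CPM in wild type, 751, 796 and 731 in DOT1L-/-, and 1139, 1155 and 1152 in ENL-/-. It fell by 0.735 in DOT1L-/- (SE 0.051, edgeR adjusted p 5.36e-08). The smaller change of -0.14 in ENL-/- was close to the threshold (SE 0.051, edgeR adjusted p 0.0457). Its call was lost without any of the 3 ENL-/- libraries (edgeR adjusted p 0.0629 to 0.0955) or DOT1L-/- replicate 1 (0.0616). No low-count filter lost it too (edgeR adjusted p 0.0621). Without wild-type replicate 1 or 2, which leaves 1 wild-type library, the log2 change was -0.17 or -0.10. LDHA was the 1 enzyme that also fell in HEL, from 1549 and 1551 CPM to 1127 and 1130, by 0.46 (SE 0.027, edgeR adjusted p 6.49e-21).

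LDHB, the partner subunit, fell by 0.36 in DOT1L-/- and by 0.16 in ENL-/- and rose by 0.20 in HEL (edgeR adjusted p 5.04e-05, 0.0229 and 1.15e-08). LDHA made up 54.5 ± 0.121% of the step's TPM in wild type (SD, n = 2) and 48.0 ± 0.094% in DOT1L-/- (SD, n = 3), and 35.6 ± 0.412% in HEL control and 26.0 ± 0.353% in the knockdown (SD, n = 2 each). ENL-/- stood at 54.9 ± 0.439% (SD, n = 3), a range from 54.4 to 55.3% around the 54.4 and 54.6% of the wild-type libraries. The LDHA share was lower with less DOT1L in both lines.

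**Figure D3:**
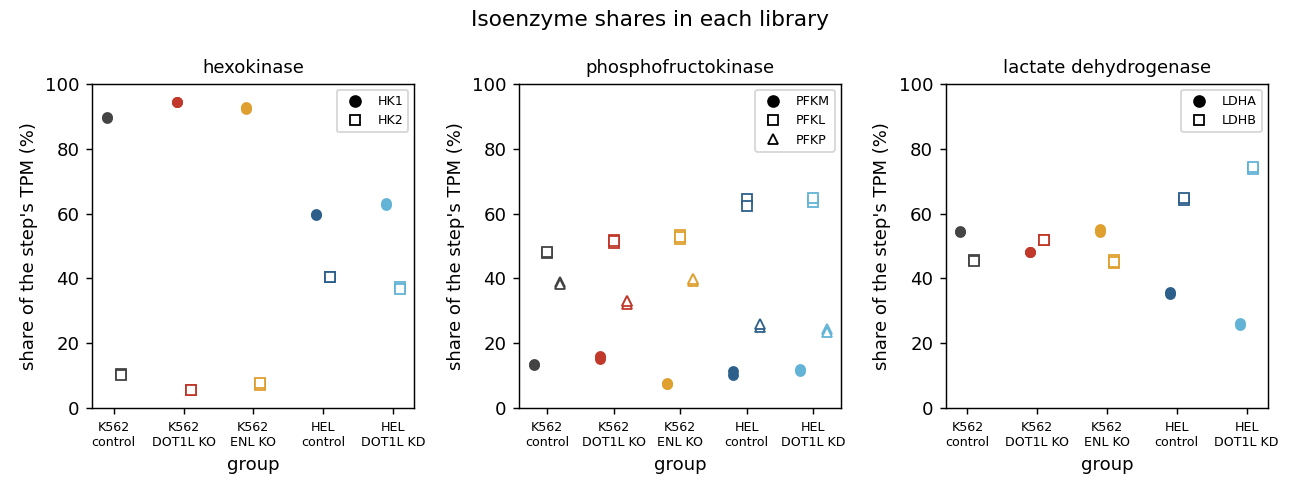
Share of each isoenzyme gene in the summed TPM of its step (percent), for hexokinase, phosphofructokinase and lactate dehydrogenase, by group; each point is a library and marker shape is the gene. The LDHA share is 48.0% in DOT1L-/- against 54.5% in wild type and 26.0% in the HEL knockdown against 35.6% in control.

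The response to less DOT1L differed between the lines for all 10 enzymes, although the ALDOA call was lost with robust fitting (edgeR adjusted p 0.106). The K562 change minus the HEL change, tested as an interaction in a joint fit of 9 libraries, was below 0 in all 10, beside a background of 38.9% of 15367 genes past the threshold, of which 19.1% were above 0 and 19.8% below. It ran from -0.27 in HK1 (SE 0.065, edgeR adjusted p 0.00223) to -1.24 in PGK1 (SE 0.065, edgeR adjusted p 2.93e-12), with a median of -0.77 beside -0.01 for all genes. PGK1, GPI, GAPDH, ENO1, HK2 and PFKM fell in K562 and rose in HEL. Among these the GAPDH fall in K562 and the HK2 rise in HEL lost their calls under some settings, as given above. LDHA fell in both, more in K562, by a difference of -0.29 (SE 0.067, edgeR adjusted p 0.00132). Cell line, knockout against knockdown, culture medium and fragment against read counting go together in this comparison and cannot be told apart. The joint fit had a common coefficient of variation of 4.88%, so its p-values do not keep the unequal spreads of the lines apart.

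Other genes around the pathway were taken from lists. Their counts stand beside the shares of all genes called: 26.9% higher and 24.2% lower in DOT1L-/-, 18.8% and 22.2% in ENL-/-, and 27.0% and 28.0% in HEL. With 7 to 13 genes tested per list, many of these counts are near those shares. Of 22 further glycolytic enzymes and isoenzymes 11 were tested in K562, and in DOT1L-/- 5 were higher and 5 lower (median -0.03). The lower ones were ALDOC, PFKP, PFKL, LDHB and PGAM1, and the higher ones included ENO2, ENO3, PKLR and the red-cell mutase BPGM. PGAM1 and BPGM were named after their values were seen. In ENL-/- 4 were higher and 1 lower (median 0.11). In HEL 10 were tested, with 6 higher and 1 lower (median 0.18), led by TPI1, the triose phosphate isomerase, which rose from 737 ± 3.42 to 1097 ± 3.86 CPM (SD, n = 2 each; 0.57, SE 0.028, edgeR adjusted p 2.23e-24).

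Among glucose and lactate transporters, 3 of 12 tested rose and 6 fell in DOT1L-/- (median -0.49), 4 rose and 5 fell in ENL-/- (median 0.24), and 4 of 13 rose and 7 fell in HEL (median -0.21). SLC2A3, the high-affinity glucose transporter GLUT3, had 292 ± 17.8 CPM in wild type (SD, n = 2) and 139 ± 1.87 in DOT1L-/- (SD, n = 3), at -1.07 on the log2 scale (SE 0.053, edgeR adjusted p 1.87e-09). SLC2A1, which encodes GLUT1, rose in HEL from 453 ± 0.933 to 867 ± 3.32 CPM (SD, n = 2 each), by 0.93 (SE 0.029, edgeR adjusted p 9.87e-33). In K562, named there after its values were seen, SLC2A1 also rose, by 0.41 in DOT1L-/- and 0.30 in ENL-/- (edgeR adjusted p 2.63e-05 and 0.00055). The lactate carrier SLC16A1 fell in ENL-/- (-0.72) and in HEL (-0.66), with edgeR adjusted p 1.49e-06 and 2.03e-20.

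Of 10 regulators of glycolytic flux tested in K562, 4 rose and 3 fell in DOT1L-/- (median 0.00), and 4 rose and 2 fell in ENL-/- (median 0.35). The pyruvate dehydrogenase kinases, which inhibit pyruvate dehydrogenase, went in both directions in DOT1L-/-. PDK1 fell from 31.5 to 13.0 CPM (-1.27, SE 0.088). PDK2 rose from 2.01 to 15.0 CPM (2.89, SE 0.141), PDK3 from 5.12 to 28.7 CPM (2.49, SE 0.123) and PDK4 from 0.918 to 20.1 CPM (4.45, SE 0.228). Their edgeR adjusted p values were 5.67e-08, 1.69e-09, 1.87e-09 and 2.79e-09. In ENL-/- PDK1 rose (0.39, edgeR adjusted p 0.00232) and so did PDK3 (2.22, edgeR adjusted p 1.14e-08). In HEL 3 of 9 rose and 4 fell (median -0.11), led by PFKFB4, which makes the activator fructose 2,6-bisphosphate, from 280 to 576 CPM (1.04, SE 0.032, edgeR adjusted p 9.87e-33).

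Genes of pyruvate import into mitochondria, or of its use there, were mostly lower in DOT1L-/-, with 6 of 8 lower and 1 higher (median -0.33). The mitochondrial pyruvate carrier subunits MPC1 (-0.79, SE 0.095) and MPC2 (-1.05, SE 0.054) and the carboxylase PC (-0.88, SE 0.074) were among them, with edgeR adjusted p 1.19e-05, 2.83e-09 and 4.06e-07. In ENL-/- 2 were lower and 1 higher (median 0.01), and in HEL 2 were lower and 2 higher (median -0.03). Of 8 pentose phosphate genes 4 were lower and 1 higher in DOT1L-/- (median -0.27), among them TKT, the transketolase, at -0.60 (SE 0.059, edgeR adjusted p 1.50e-06). Of the same genes 1 was lower and 2 were higher in ENL-/- (median -0.09), and 3 of 7 tested were lower and 2 higher in HEL (median -0.05). Serine and glycerol branch genes had medians of 0.01 (3 of 8 lower, 1 higher), -0.08 (4 of 8 lower, 1 higher) and -0.07 (3 of 7 lower, 1 higher) in DOT1L-/-, ENL-/- and HEL. PHGDH, the first enzyme of serine synthesis, fell in ENL-/- (-0.96, SE 0.074) and in HEL (-0.955, SE 0.057), with edgeR adjusted p 2.70e-07 and 2.17e-20. Glycogen genes had medians of -0.07 (3 of 8 lower, 0 higher), -0.15 (3 of 8 lower, 1 higher) and -0.23 (6 of 9 lower, 3 higher), and the branching enzyme GBE1 fell in DOT1L-/- (-1.34, SE 0.085, edgeR adjusted p 2.38e-08) and rose in HEL (0.59, SE 0.050, edgeR adjusted p 6.84e-15).

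Of the 13 hypoxia-responsive genes outside glycolysis all 13 fell in DOT1L-/-, beside the background of 24.2% lower, with a median of -1.16. VEGFA, the vascular growth factor, had 184 ± 17.5 CPM in wild type (SD, n = 2) and 70.3 ± 4.24 in DOT1L-/- (SD, n = 3), at -1.39 on the log2 scale (SE 0.075, edgeR adjusted p 4.58e-09). BNIP3, a mitophagy receptor, fell from 57.3 ± 0.49 to 21.8 ± 0.664 CPM (SD, n = 2 and 3), at -1.40 on the log2 scale (SE 0.072, edgeR adjusted p 2.82e-09). CA9, a carbonic anhydrase, fell from 6.42 ± 0.055 to 0.259 ± 0.209 CPM (SD, n = 2 and 3; edgeR adjusted p 2.88e-08). In ENL-/- 7 were lower and 1 higher (median -0.64), among them NDRG1, which fell from 15.1 to 1.24 CPM (-3.59, SE 0.146, edgeR adjusted p 5.23e-10). In HEL 7 of 12 rose and 2 fell (median 0.13), and NDRG1 rose there from 51.4 to 130 CPM (1.34, SE 0.051, edgeR adjusted p 1.11e-28). The difference between the lines passed for 12 of the 13 genes, all below 0, with a median of -1.385.

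**Figure D4:**
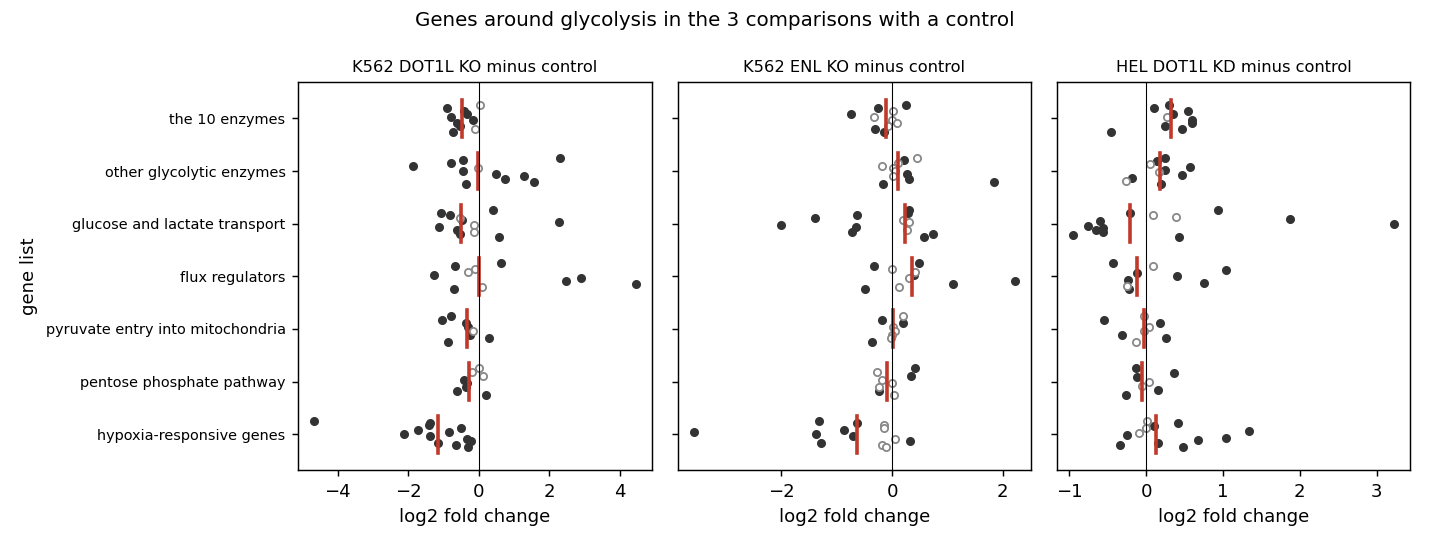
Log2 fold change of each tested gene of 7 lists in the 3 comparisons with a control, with a horizontal scale of its own in each panel; filled points passed the adjusted p threshold, open points did not, and the red bar is the list median. The hypoxia-responsive genes have a median of -1.16 in DOT1L-/- and 0.13 in the HEL knockdown, and the 10 enzymes -0.47 and 0.32.

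Among transcription factors and oxygen sensors known to act on glycolytic genes, 1 of 13 rose and 6 fell in DOT1L-/- (median -0.16), 2 rose and 3 fell in ENL-/- (median -0.04), and 6 of 12 rose and 3 fell in HEL (median 0.07). HIF1A transcript, looked at after the lists were counted, did not pass in any of the 3 (-0.04, 0.12 and 0.02, edgeR adjusted p 0.790, 0.355 and 0.789). Of its 4395 exonic bases 30.4% are shared, and how shared reads were assigned is not given, so its counts are uncertain. EPAS1, which encodes HIF-2 alpha, had 25.3 ± 2.06 CPM in wild type (SD, n = 2) and 73.7 ± 2.46 in DOT1L-/- (SD, n = 3), a rise of 1.54 (SE 0.081, edgeR adjusted p 3.37e-09), and in ENL-/- by 0.47 (SE 0.082, edgeR adjusted p 0.000486). EGLN1, the oxygen-sensing prolyl hydroxylase, fell in DOT1L-/- (-0.77, SE 0.077, edgeR adjusted p 2.15e-06) and rose in HEL (0.36, SE 0.045, edgeR adjusted p 9.79e-10). MYC fell in ENL-/- (-0.66, SE 0.051, edgeR adjusted p 2.67e-07), and, read after its values were seen, also in DOT1L-/- (-0.49, edgeR adjusted p 3.48e-06) and in HEL (-0.20, edgeR adjusted p 1.64e-07).

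The genes whose pattern was closest to an enzyme were taken by the root mean square difference of centred log2 CPM over the 8 distinct K562 libraries, among 9119 genes, for the 3 enzymes with the widest range of group means. For HK2 (range 0.909 log2) they were CPT1A, SLCO4A1 and TPD52L1, at 0.067 to 0.069. For ALDOA (range 0.787) they were SLC27A5, LINC02001 and EPS8L2, at 0.071 to 0.108. For PFKM (range 0.743) they were DUSP13, APOL1 and PPIB, at 0.036 to 0.052.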

How the data were processed

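Polyadenylated RNA was sequenced from strand-specific libraries, per the labels' protocols. The authors deposited raw counts per gene, as fragments for K562 and as reads for HEL, per the file headers, with exon positions and the exonic length of each gene. The submitters' processing notes name fastp 0.13.1, HISAT2 2.1.0, Bowtie2 2.3.4.1 and featureCounts 1.6.1, without their roles. Of 28131 symbols 93.7% matched RefSeq, and 99.825% of those on main chromosomes overlapped their GRCh38.p14 position, so coordinates are given on GRCh38. The other 61 of 74 samples were not analysed here.

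Genes were filtered with filterByExpr (minimum count 10, minimum total 15), scaled with TMM and tested with edgeR 4.0.16 (R 4.3.3) by quasi-likelihood, all K562 groups in one fit (8 libraries), HEL in another (4 libraries) and both DOT1L contrasts in a joint fit for the interaction. Adjustment was by Benjamini-Hochberg over all genes tested, with a threshold of 0.05. Standard errors were derived from the F statistic. CPM are TMM-scaled, and TPM divide counts by the deposited length. A count of 0 allows up to 3 counts, worth 0.103 to 0.247 CPM, which covers counting error only. The tests were checked on simulated counts with independent libraries and the same spread for every gene. That setting does not cover the correlations between same-number K562 libraries given below. All 10 enzymes are named. From each other list up to 4 genes per comparison are named, those past the threshold with the largest absolute log2 fold change and at least 5 CPM in one group, besides isoenzymes of a member's step and the targeted genes. Pattern neighbours needed a mean of at least 10 CPM. The enzymes, lists and tests were chosen with earlier results of these data known. Alternatives were other scalings, filters and tools, a replicate block and leaving out each library. Some single genes of the lists are counted but not reported here.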

Additional observations from a re-analysis of the deposited data

Results flagged for a closer look

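For each of the 10 enzymes the change with less DOT1L differed between K562 and HEL by the interaction test of edgeR. The K562 change minus the HEL change was -1.24 in PGK1, -1.08 in ALDOA, -1.03 in HK2, -0.97 in GPI, -0.78 in ENO1, -0.75 in GAPDH, -0.69 in PFKM, -0.57 in PKM, -0.29 in LDHA and -0.27 in HK1, on the log2 scale. Among them HK1 and PKM did not pass the threshold in K562, ALDOA did not pass it in HEL, and LDHA fell in both lines. The ALDOA call was lost with robust fitting (edgeR adjusted p 0.106). Its value rests on 108 to 154 counts per HEL library and on exons shared with another gene. Cell line, knockout against knockdown, culture medium and the unit counted cannot be told apart in these values.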

How the results depend on the processing

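Of 889 values of the enzymes under other settings, 850 kept their direction and their side of the threshold, 27 lost a call, 6 gained one and 6 changed sign. The sign changes were in ENL-/-, in enzymes that had not passed: GPI was -0.0088 with upper-quartile scaling and -0.0124 with a mean of at least 10 CPM, and ran from -0.0121 (without ENL-/- replicate 2) to 0.0349 over the left-out libraries. GAPDH was 0.0107 with the replicate block and ran from -0.0463 to 0.0392 (without wild-type replicate 2) over the left-out libraries, with 0.0181 without ENL-/- replicate 3. The cause was not tested. When a call also needed an absolute log2 change of 1 or more, 0 enzymes passed in DOT1L-/-, 0 in ENL-/-, 0 between the knockouts, 0 in HEL and 3 in the interaction. Of all genes 15.8%, 11.0%, 19.2%, 5.84% and 12.7% passed then, in the same order. Leaving out 1 knockout library gave 7 to 8 enzymes past the threshold in DOT1L-/-, beside 45.8 to 53.1% of all genes. It gave 4 to 5 in ENL-/- (34.9 to 41.4% of genes) and 9 to 10 between the knockouts (53.7 to 57.9%). In the interaction it gave 10 in every case (38.1 to 43.3%). Without a wild-type or HEL library a group keeps only 1, so no count is given. Between the knockouts the lost calls were of ALDOA and GAPDH, and ALDOA also lost its interaction with robust fitting (edgeR adjusted p 0.106). The deviations of same-number K562 libraries from their group means correlated at 0.0876 to 0.683, highest between the knockout libraries numbered 1, and the numbers were not taken as pairs because the lowest, of DOT1L-/- 2 and ENL-/- 2, is under 0.1. DOT1L-/- 2 correlated with ENL-/- 3 at 0.395, so not every library correlated best with its own number. In HEL the same-number correlation was -0.0509. With the replicate block 8, 7, 10, 9 and 10 enzymes passed in the 5 comparisons, beside 58.3%, 49.1%, 67.2%, 54.6% and 44.4% of all genes, and ALDOA and PGK1 passed in ENL-/- (edgeR adjusted p 0.00736 and 0.0204). Over all genes the count fell from 7305 to 4563 in DOT1L-/- and from 8606 to 5194 between the knockouts with a mean of at least 10 CPM, where 9119 genes were tested and 50% and 57% of them passed, and from 6951 to 4373 in HEL with DESeq2. With the minimum fold change it was 2265, 1573, 2744, 738 and 1950. The share of higher genes in HEL rose from 49.1% to 61.4% with upper-quartile scaling, under which ALDOA passed (adjusted p 0.0368). ALDOA had no HEL value with a mean of at least 10 CPM.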
